A study of Mus musculus with 18 samples.

Results

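Of the endoplasmic reticulum (ER) genes described here, 40 were chosen by name for roles in folding, translocation, degradation and the unfolded protein response. They were chosen with earlier results of these data known, so their shares beside all genes are descriptions and not tests. The deposited expression table and its annotation gave 39 of the 40 a probe set of their own, and all 39 were tested, among 13121 tested genes. Sec61g was measured only together with another gene and is not reported. The 39 genes had 103 probe sets, of which 93 passed the filter on dim signals. Each gene is described on the probe set of highest mean, and its other probe sets are given where they were called and counted where their sign differed.

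The tissue was mouse hippocampus, which spatial memory depends on, with 1 Affymetrix array per sample. Aged impaired (poor spatial memory), aged unimpaired (good spatial memory) and young hippocampus had 6 samples each. The labels name no treatment, allele, strain or exact age, and do not say whether each sample was a separate animal. A p-value here sets a difference against the spread of samples within groups. That spread may be technical, so the p-value may not extend to animals. The series set out to compare aged animals with poor and with good spatial memory, and the young group allows each aged group to be set against youth.

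Secreted and membrane proteins enter the ER through the translocon, are folded there by chaperones and by enzymes that form and reshuffle disulfide bonds, and are returned to the cytosol for degradation when folding fails. When unfolded protein builds up, the membrane sensors Ern1 (IRE1), Eif2ak3 (PERK) and Atf6 start the unfolded protein response. Ern1 splices the Xbp1 messenger into the form that encodes an active transcription factor, Atf6 is cut to release another, and Eif2ak3 slows translation and raises Atf4. These factors raise many of the chaperone, oxidoreductase and degradation genes described here. Neurons make large amounts of membrane and secreted protein and depend on this machinery.

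The promoters of Xbp1, Pdia6, Pdia3 and Hsp90b1 are shown because these 4 genes gave the smallest p-values of the 39 between aged impaired and young hippocampus. Each runs from 250 bases before the start site to 50 after it, 5′ to 3′ on the gene's strand, from RefSeq on build GRCm38.p6. The positions are chr11:5520391-5520690 on the plus strand for Xbp1, chr12:17266339-17266638 on the plus strand for Pdia6, chr2:121413652-121413951 on the plus strand for Pdia3 and chr10:86705395-86705694 on the minus strand for Hsp90b1. Capitals mark the ER stress response element (ERSE), CCAAT, any 9 bases, then CCACG, on either strand.
Xbp1: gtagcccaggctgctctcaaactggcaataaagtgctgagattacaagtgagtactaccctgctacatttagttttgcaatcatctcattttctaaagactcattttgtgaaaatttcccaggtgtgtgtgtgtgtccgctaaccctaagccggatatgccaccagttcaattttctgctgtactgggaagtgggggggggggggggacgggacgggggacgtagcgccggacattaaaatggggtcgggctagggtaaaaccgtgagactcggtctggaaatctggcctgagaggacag
Pdia6: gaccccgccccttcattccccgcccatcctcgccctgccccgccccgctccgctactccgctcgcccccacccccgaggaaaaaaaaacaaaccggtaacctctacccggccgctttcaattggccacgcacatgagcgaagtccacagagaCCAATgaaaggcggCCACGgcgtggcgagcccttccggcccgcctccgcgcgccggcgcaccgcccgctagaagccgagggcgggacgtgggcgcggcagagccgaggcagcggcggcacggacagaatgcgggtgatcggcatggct
Pdia3: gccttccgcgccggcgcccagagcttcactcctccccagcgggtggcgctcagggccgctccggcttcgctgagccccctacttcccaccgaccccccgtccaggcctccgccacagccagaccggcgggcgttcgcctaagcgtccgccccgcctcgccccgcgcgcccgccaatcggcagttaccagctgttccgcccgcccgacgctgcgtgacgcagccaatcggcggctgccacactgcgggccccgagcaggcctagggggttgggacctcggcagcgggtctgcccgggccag
Hsp90b1: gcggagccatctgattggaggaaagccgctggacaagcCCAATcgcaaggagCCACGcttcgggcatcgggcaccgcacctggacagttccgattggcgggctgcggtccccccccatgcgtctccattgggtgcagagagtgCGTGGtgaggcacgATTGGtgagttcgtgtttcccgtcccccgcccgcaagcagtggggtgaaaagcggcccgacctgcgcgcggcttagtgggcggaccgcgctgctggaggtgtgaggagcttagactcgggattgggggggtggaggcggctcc
Pdia6 held 1 ERSE, from -98 to -80 relative to the start site. Hsp90b1 held 2, from -212 to -194 and, on the opposite strand, from -107 to -89. Xbp1 and Pdia3 held none, which says only that these letters are not in this window.

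In aged impaired hippocampus, Xbp1, Pdia6 and Pdia3 were lower than in young hippocampus, by 22.3%, 31.5% and 19.5%. These were the 3 of 39 ER genes called at an adjusted p under 0.05 with limma and Benjamini-Hochberg adjustment over all tested probe sets. All values and differences are on the log2(signal + 16) scale, with signals rescaled per array, and the percentages are taken from those differences. The 3 genes make 7.69% of the 39, beside 1.9% of all tested genes called in either direction and 0.594% called lower. Because the 39 were chosen with earlier results known, the higher share is no test of the group. All 3 also had lower means in aged impaired than in aged unimpaired hippocampus, but no ER gene was called there, where 0.00762% of all genes were. No ER gene was called between aged unimpaired and young, where 0.145% of all genes were, or between the mean of both aged groups and young, where 1.19% were.

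The ER genes did not shift as a whole. Aged impaired against young, 20 of the 39 had a lower mean, and the median difference was -0.0001 on the log2 scale. Over all tested genes 50.8% were lower and the median was -0.0030. Aged impaired against aged unimpaired, 22 of 39 had a lower mean with a median of -0.021, beside 47.7% and 0.0067 over all genes. Aged unimpaired against young, 20 of 39 were lower with a median of -0.0025, beside 52.3% and -0.0075 over all genes. At an unadjusted p under 0.05, aged impaired against young gave 12 of 39, or 30.8%, with 9 of them lower, beside 16.2% of all genes. The same count was 5 of 39, or 12.8%, all lower, aged impaired against aged unimpaired, beside 8.06% of all genes. It was 3 of 39, or 7.69%, aged unimpaired against young, beside 8.45%, and 8 of 39, or 20.5%, for both aged groups against young, beside 13.9%. The aged impaired and aged unimpaired comparisons with young share the young samples.

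**Figure D1:**
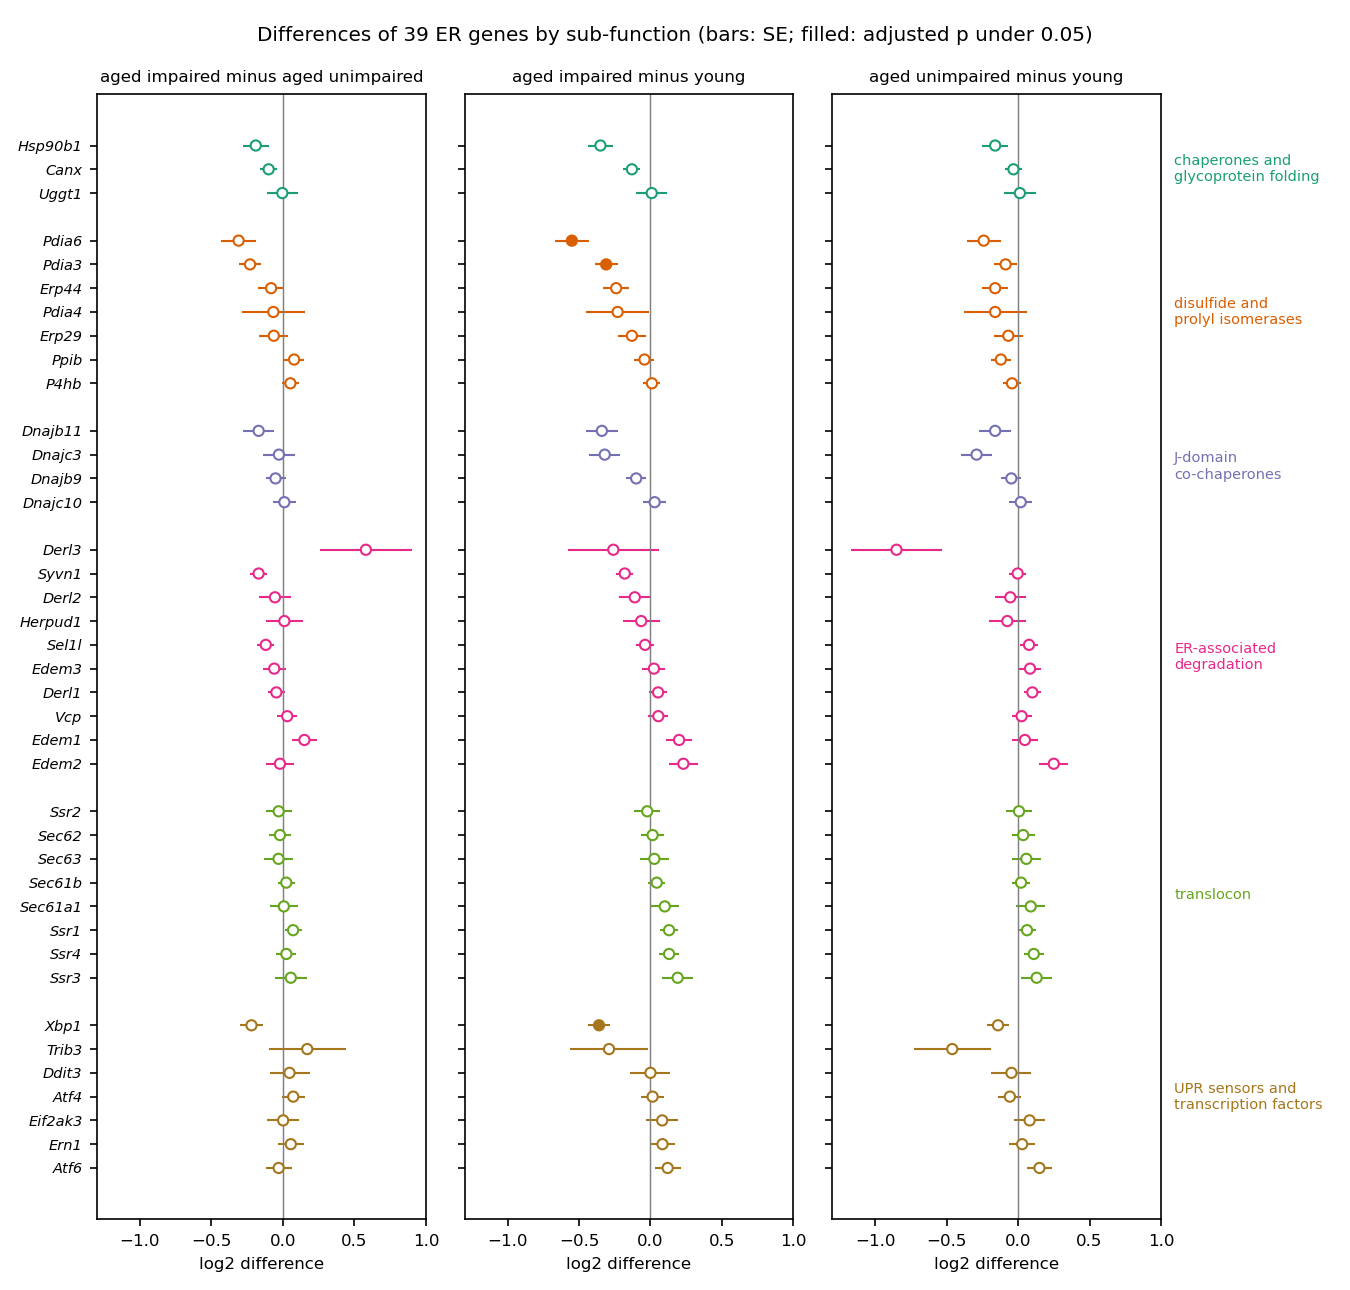
Differences of the 39 tested ER genes on the log2(signal + 16) scale, with standard errors, in aged impaired minus aged unimpaired, aged impaired minus young and aged unimpaired minus young samples (n = 6 each), ordered by sub-function. Filled points, for Pdia6, Pdia3 and Xbp1 in aged impaired minus young, have an adjusted p under 0.05, and the widest bars belong to Derl3, Trib3 and Pdia4.

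The chaperone group held Hsp90b1, the ER member of the Hsp90 family, Canx (calnexin), a membrane lectin that holds unfinished glycoproteins, and Uggt1, which tags misfolded glycoproteins to bind lectins again. Hsp90b1 had log2 values with lowest, median and highest of 12.10, 12.21 and 12.37 in aged impaired, 12.23, 12.35 and 12.80 in aged unimpaired, and 12.47, 12.56 and 12.73 in young samples. All aged impaired samples lay below all young samples, while the aged unimpaired samples spread across both. Aged impaired minus young was -0.35 ± 0.09 (SE), with an adjusted p of 0.0579 in limma, just above the threshold. Aged impaired minus aged unimpaired was -0.19 ± 0.09 with an adjusted p of 0.617. A second Hsp90b1 probe set, of mean 11.18, gave -0.18 ± 0.12 aged impaired minus young, and its groups overlapped. Canx differed by -0.13 ± 0.06 aged impaired minus young, with an adjusted p of 0.265, and Uggt1 by 0.0087 ± 0.11.

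Of 7 tested disulfide and prolyl isomerases, 2 were called aged impaired against young, beside 1.9% of all genes called in either direction. A lower mean in aged impaired than in young samples was found for 6 of the 7, beside 50.8% of all genes. Pdia6, a thioredoxin-fold protein disulfide isomerase, had log2 values of 10.72, 10.92 and 11.19 (lowest, median, highest) in aged impaired samples. They were 10.99, 11.21 and 11.42 in aged unimpaired and 11.20, 11.36 and 11.82 in young samples. Every aged impaired sample was below every young sample, and the aged unimpaired samples overlapped both groups. Pdia6 fell in aged impaired against young, by 0.55 ± 0.12 on the log2 scale, with an adjusted p of 0.0243 in limma. Aged impaired minus aged unimpaired was -0.31 ± 0.12, with an adjusted p of 0.513 in limma. Aged unimpaired minus young was -0.24 ± 0.12, with an adjusted p of 0.614. A dim second probe set, of mean 6.09, gave -0.31 ± 0.12 aged impaired minus young and was not called, with an adjusted p of 0.21. The Pdia6 call was lost without aged impaired replicate 4, at an adjusted p of 0.0504, and without young replicate 3, at 0.0536.

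Pdia3, an isomerase that works with calnexin and calreticulin on glycoproteins, had log2 values of 11.73, 11.90 and 12.06 (lowest, median, highest) in aged impaired samples. They were 12.03, 12.10 and 12.35 in aged unimpaired samples and 12.12, 12.19 and 12.43 in young samples. The aged impaired samples again lay wholly below the young ones and met the lowest aged unimpaired samples. Aged impaired minus young was -0.31 ± 0.08 with an adjusted p of 0.0459 in limma. Aged impaired minus aged unimpaired was -0.23 ± 0.08 with an adjusted p of 0.451, and aged unimpaired minus young was -0.087 ± 0.08 with an adjusted p of 0.818. The call on this probe set was lost in 11 of the 12 fits that left out 1 sample of these groups, with adjusted p up to 0.0876. A second Pdia3 probe set, of mean 8.54, lay at 7.98, 8.37 and 8.62 in aged impaired, 8.26, 8.50 and 8.75 in aged unimpaired and 8.68, 8.82 and 8.94 in young samples. It was lower by 29.2% in aged impaired than in young samples, at -0.50 ± 0.11 with an adjusted p of 0.032 in limma. These 2 groups did not overlap on it, and how many of all probe sets separate was not counted.

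The other isomerases did not pass. Erp44, which retains ER oxidases, differed by -0.24 ± 0.09 aged impaired minus young with an adjusted p of 0.175. Pdia4, another disulfide isomerase, varied most within groups, and its difference of -0.23 ± 0.22 was close to its error. Erp29, a thioredoxin-fold chaperone, differed by -0.13 ± 0.10, Ppib, the ER cyclophilin, by -0.042 ± 0.07, and P4hb, the founding protein disulfide isomerase, by 0.01 ± 0.06. On their brightest sets, all 7 isomerases had a lower mean in aged unimpaired than in young samples, from -0.24 to -0.042, with none called. Over all tested genes 52.3% were lower there. A second Ppib set, of mean 12.27, gave 0.052 ± 0.11 aged unimpaired minus young and 0.066 ± 0.11 aged impaired minus young.

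**Figure D2:**
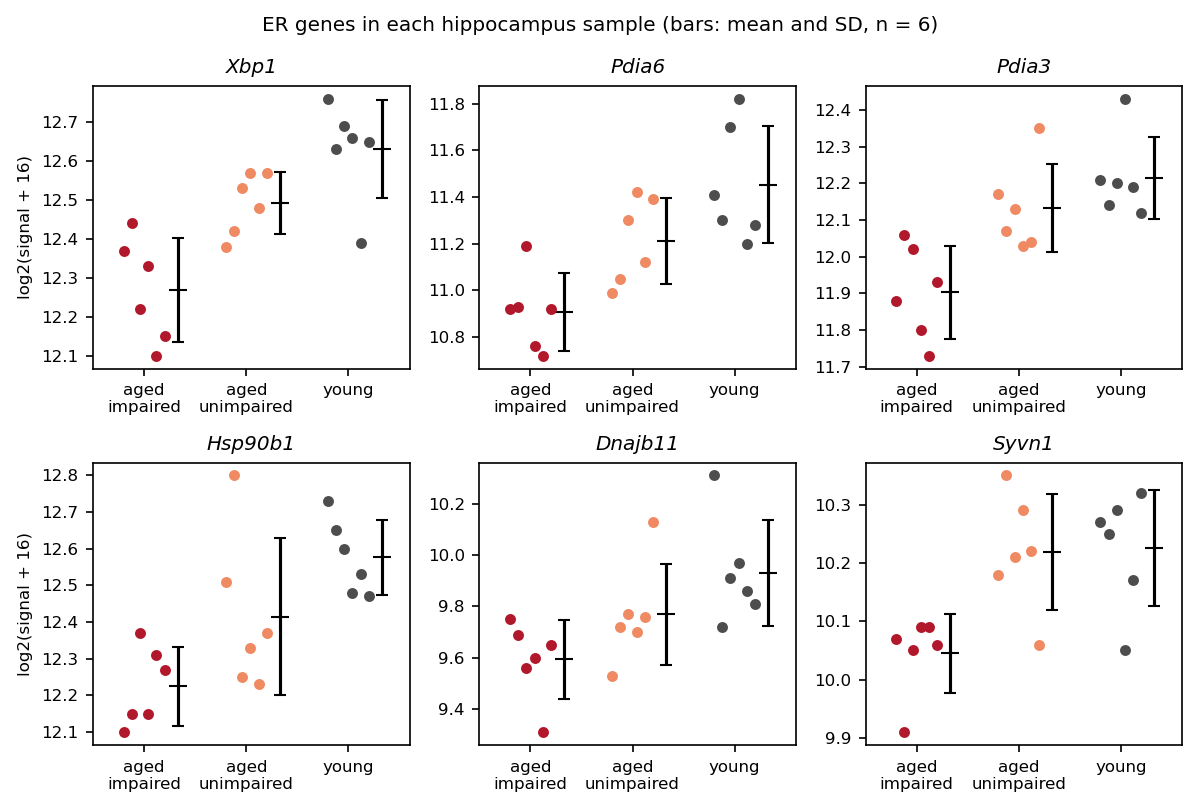
Log2(signal + 16) in each of the 18 samples for 6 ER genes, with aged impaired samples on the left, aged unimpaired in the middle and young on the right, and the mean and SD (n = 6) beside the points. Axes do not start at 0. Aged impaired samples lie wholly below young samples for Pdia6, Pdia3 and Hsp90b1, and young replicate 5 of Xbp1, at 12.39, lies among the aged samples.

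The J-domain proteins recruit Hspa5 (BiP), the main ER chaperone, to its clients. Dnajb11, which binds unfolded chains, had log2 values of 9.31, 9.63 and 9.75 in aged impaired, 9.53, 9.74 and 10.13 in aged unimpaired and 9.72, 9.88 and 10.31 in young samples (lowest, median, highest). Aged impaired and young samples met at the edge of their ranges, and the difference of -0.34 ± 0.11 had an adjusted p of 0.125 in limma. Dnajc3, an Hspa5 co-chaperone also known as an inhibitor of PERK-family kinases, differed from young by -0.32 ± 0.11 in aged impaired and by -0.29 ± 0.11 in aged unimpaired samples. It differed by -0.028 ± 0.11 aged impaired minus aged unimpaired. All 5 Dnajc3 probe sets had a lower mean in aged impaired than in young samples, the dimmest by -0.68 ± 0.19 with an adjusted p of 0.0762. Dnajb9, which assists degradation of misfolded clients, differed by -0.10 ± 0.07, and Dnajc10, an ER reductase, by 0.029 ± 0.08, aged impaired minus young.

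Of the 10 genes of ER-associated degradation, 0 were called in limma in any comparison. Aged impaired against young, 5 of 10 had a lower mean, the median difference was -0.0073 and 3 had an unadjusted p under 0.05. Over all genes 50.8% had a lower mean there and 16.2% an unadjusted p under 0.05. Syvn1 (HRD1), the ubiquitin ligase of the main degradation complex, had log2 values of 9.91, 10.06 and 10.09 in aged impaired samples (lowest, median, highest). They were 10.06, 10.22 and 10.35 in aged unimpaired and 10.05, 10.26 and 10.32 in young samples. All aged impaired samples lay below all but the lowest sample of each other group. The difference was -0.17 ± 0.06 from aged unimpaired, with an adjusted p of 0.5, and -0.18 ± 0.06 from young, with an adjusted p of 0.182. The second Syvn1 probe set gave 0.01 ± 0.15 aged impaired minus aged unimpaired and -0.12 ± 0.15 aged impaired minus young.

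Sel1l, the adaptor that holds Syvn1 in its complex, differed by -0.12 ± 0.06 aged impaired minus aged unimpaired and by -0.038 ± 0.06 aged impaired minus young. Edem1 and Edem2, which trim mannose from glycoproteins marked for degradation, had the other sign, 0.20 ± 0.09 and 0.23 ± 0.10 aged impaired minus young, with adjusted p of 0.285 and 0.253 in limma. Edem2 also gave 0.25 ± 0.10 aged unimpaired minus young, with an adjusted p of 0.481, while Edem3 gave 0.024 ± 0.08 aged impaired minus young. Vcp, the ATPase that pulls clients from the membrane, differed by 0.055 ± 0.07, and Herpud1, an ER membrane protein that recruits the Syvn1 complex, by -0.065 ± 0.13. Among the derlins, membrane proteins of the degradation channel, Derl1 gave 0.053 ± 0.06 and Derl2 -0.11 ± 0.11. Derl3 was dim, with a mean of 6.74, and its largest difference, -0.85 ± 0.32 aged unimpaired minus young, had an adjusted p of 0.464.

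The translocon group held the Sec61 channel, its partners Sec62 and Sec63, and the 4 translocon-associated Ssr subunits. Of the 8 tested, 7 had a higher mean in aged impaired than in young samples, with a median of 0.069. All 8 had a higher mean in aged unimpaired than in young samples, with a median of 0.06. Over all genes 50.8% and 52.3% had a lower mean in these comparisons. With limma 0 of them were called in any comparison. Aged impaired against young, 1, Ssr1, had an unadjusted p under 0.05, beside 16.2% of all genes. Ssr1 had log2 values of 11.71, 11.78 and 12.03 in aged impaired, 11.65, 11.73 and 11.84 in aged unimpaired and 11.60, 11.68 and 11.72 in young samples (lowest, median, highest). The difference of 0.13 ± 0.06 aged impaired minus young had an adjusted p of 0.307, and aged impaired minus aged unimpaired was 0.071 ± 0.06. Ssr3 and Ssr4 differed by 0.19 ± 0.11 and 0.13 ± 0.07 aged impaired minus young, Sec61a1 by 0.10 ± 0.10, Sec61b by 0.044 ± 0.06, Sec63 by 0.027 ± 0.10 and Sec62 by 0.015 ± 0.08. Ssr2 was the exception at -0.023 ± 0.09. These signs depend on the probe set. For Sec61a1, 4 of the other 5 sets had the opposite sign aged impaired minus young, and all 5 did aged unimpaired minus young. The other set of Ssr3, of mean 11.93, gave -0.12 ± 0.08 aged impaired minus young. Aged unimpaired minus young, the 3 other sets of Ssr1 and the other set of Ssr3 also had the opposite sign, as did some sets of Sec63 and Ssr4.

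Among sensors and transcription factors, Xbp1 was the gene called aged impaired against young, 1 of 7, beside 1.9% of all genes. Xbp1 had log2 values of 12.10, 12.27 and 12.44 in aged impaired, 12.38, 12.50 and 12.57 in aged unimpaired and 12.39, 12.66 and 12.76 in young samples (lowest, median, highest). Aged impaired samples were lowest, and young replicate 5, at 12.39, was the only young sample within their range. Xbp1 fell in aged impaired against young by 0.36 ± 0.08 on the log2 scale, with an adjusted p of 0.0201 in limma. Aged impaired minus aged unimpaired was -0.22 ± 0.08 with an unadjusted p of 0.00812 and an adjusted p of 0.451. Aged unimpaired minus young was -0.14 ± 0.08 with an adjusted p of 0.656. Without aged impaired replicate 6 the adjusted p of aged impaired against young was 0.052.

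By the manufacturer's naming (suffix _s_at), the brightest Xbp1 set and the set of mean 10.80 can match transcripts of several genes, as can the brightest sets of Canx, Syvn1, Derl1, Sec62 and Ssr4. All 4 Xbp1 probe sets had a lower mean in aged impaired than in young samples, and 3 were called. The set of mean 12.16 lay at 11.72, 11.87 and 12.06 in aged impaired, 12.08, 12.11 and 12.22 in aged unimpaired and 12.27, 12.47 and 12.60 in young samples. On this set, 1 of the 4, the 3 groups did not overlap, though their edges lay close, at 12.06 against 12.08 and at 12.22 against 12.27. How many of all probe sets separate in this way was not counted. The set of mean 12.16 was lower by 32.2% in aged impaired than in young samples, at -0.56 ± 0.07 with an adjusted p of 6.50e-04 in limma. Aged impaired minus aged unimpaired was -0.25 ± 0.07, with an adjusted p of 0.383, and aged unimpaired minus young was -0.31 ± 0.07, with an adjusted p of 0.151. The set of mean 10.80 gave -0.43 ± 0.08 aged impaired minus young with an adjusted p of 0.0153, and the dim set of mean 7.63 gave -0.29 ± 0.14 with an adjusted p of 0.321. Spliced and unspliced Xbp1 messengers were not told apart here.

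The other sensors and factors showed no called difference. Atf6 differed by 0.12 ± 0.09, Ern1 by 0.084 ± 0.09 and Eif2ak3 by 0.082 ± 0.11, aged impaired minus young. Atf4, the factor raised when Eif2ak3 slows translation, differed by 0.015 ± 0.08. Its target Ddit3 (CHOP), a factor tied to cell death under lasting ER stress, lay at 9.59, 9.68 and 9.92 in aged impaired, 9.34, 9.74 and 9.92 in aged unimpaired and 9.31, 9.76 and 10.21 in young samples. The Ddit3 groups overlapped throughout, with a difference of -0.00013 ± 0.14 aged impaired minus young. Trib3, a pseudokinase downstream of Ddit3, was dim, with a mean of 6.15, and differed by -0.29 ± 0.27.

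At the level of single probe sets, 6 of 93 were called aged impaired against young, beside 1.63% of all tested probe sets, and they belonged to Xbp1, Pdia3 and Pdia6. For both aged groups against young, 2 of 93 were called, beside 0.947% of all. These were the Xbp1 set of mean 12.16, at -0.44 ± 0.06 with an adjusted p of 0.0023, and the Pdia3 set of mean 8.54, at -0.42 ± 0.10 with an adjusted p of 0.0474. Neither was the brightest set of its gene. Aged impaired against young, 16 of the 54 further probe sets went against the sign of their gene's brightest set, in Ppib, Dnajc10, Derl1, Sec61a1, Sec62, Sec63, Ssr3, Ssr4, Atf4 and Ern1. None of the 16 was called. Opposite signs were found for 21 of 54 sets in 16 genes aged impaired against aged unimpaired and for 21 of 54 in 11 genes aged unimpaired against young, none called. An Atf6 set gave 0.26 ± 0.10 aged impaired minus aged unimpaired, where the brightest gave -0.03 ± 0.09, with adjusted p of 0.544 and 0.953 in limma.

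**Figure D3:**
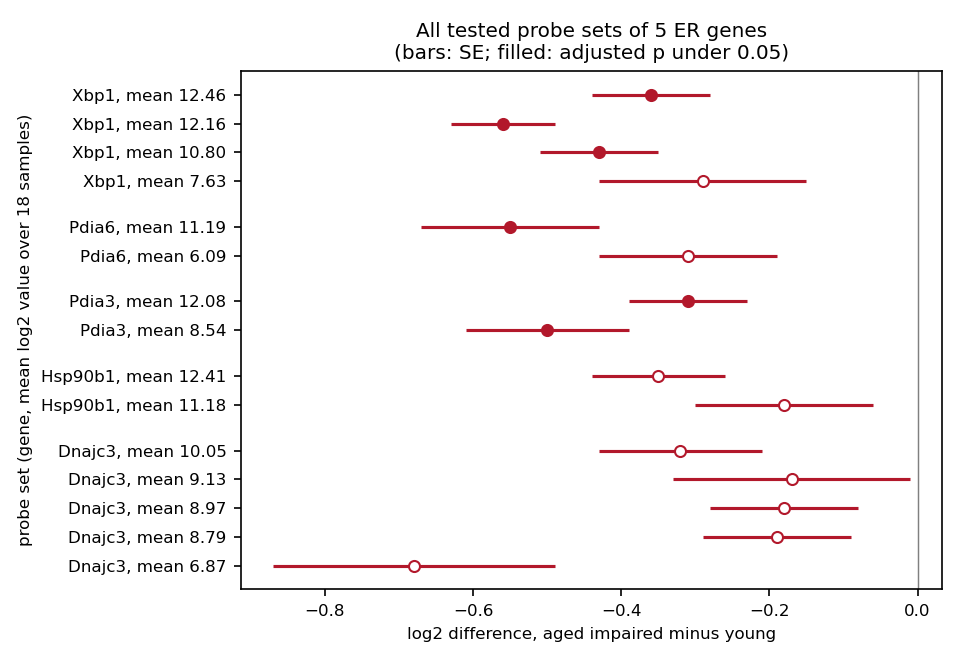
Differences aged impaired minus young, on the log2(signal + 16) scale with standard errors (n = 6 each), for every tested probe set of Xbp1, Pdia6, Pdia3, Hsp90b1 and Dnajc3, labelled by the mean log2 value. All lie below 0, and the filled points, for 3 sets of Xbp1, 1 of Pdia6 and 2 of Pdia3, have an adjusted p under 0.05.

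Complete separation of groups, without a test, was also counted, on the brightest probe set of each gene only. Aged impaired and young samples did not overlap for Hsp90b1, Pdia3 and Pdia6, 3 of 39, each lower in aged impaired, beside 2.32% of all genes in either direction. Aged impaired and aged unimpaired samples overlapped for all 39, where 0.556% of all genes were separated, and so did aged unimpaired and young samples, where 0.876% were. Xbp1 was not among the separated genes on its brightest probe set because of young replicate 5.

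Motifs were searched on both strands in 37 promoters of 35 of the 40 genes, with no overlap between matches. Erp29, Atf6, Derl1, Sec61a1 and Ssr2 were not among the genes searched. ERSE was found in 6 genes, Canx, Derl3, Dnajc3, Hsp90b1, Pdia6 and Syvn1, and in 0.119% of 32851 RefSeq promoters. ERSE-II, ATTGG, any 1 base, then CCACG, was found in Dnajb11 and Herpud1 and in 0.0365% of all promoters. The UPR element, TGACG followed directly by TGG, was found in Vcp and in 0.676% of all. The composite ATF site, TGATG followed directly by CAA, was found in Herpud1 and in 0.895% of all.

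The 6 genes with ERSE all had a lower mean in aged impaired than in young samples, from -0.55 to -0.13 with a median of -0.29. Over all tested genes 50.8% were lower there. Of the 6, the dim Derl3 lay at -0.26 ± 0.32, within its error. The 28 tested genes whose promoter entry held no ERSE had a lower mean in 12 cases, with a median of 0.013, and ranged from -0.36, for Xbp1, to 0.23. The 28 include Dnajb11, which held ERSE-II and lay at -0.34 ± 0.11. Aged impaired against aged unimpaired, 5 of 6 and 13 of 28 had a lower mean, beside 47.7% of all genes. The exception among the 6 was Derl3, at 0.58 ± 0.32. Aged unimpaired against young, 6 of 6 and 13 of 28 had a lower mean, beside 52.3% of all genes, and Syvn1 lay at -0.0025. Of the 6, 1 passed the test, Pdia6, and these counts are descriptions with no test.

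The other genes of the pathway were counted from 4 lists with 69 genes, also chosen with earlier results of these data known. Of 15 tested other ER chaperones and oxidases, 5 were called aged impaired against young, all lower, beside 1.9% of all genes called in either direction and 0.594% called lower. Both aged groups against young also gave 5 calls, all lower, beside 1.19% of all genes. The list's median was -0.0085, since 7 of the 15 had a higher mean. Hspa5 averaged 12.78 ± 0.12 in aged impaired, 13.17 ± 0.16 in aged unimpaired and 13.39 ± 0.18 in young samples (SD, n = 6 each), and fell by 0.61 ± 0.09 in aged impaired against young, with a limma adjusted p of 0.00232. Manf, a secreted ER stress protein, averaged 10.73 ± 0.15 in aged impaired, 11.09 ± 0.09 in aged unimpaired and 11.38 ± 0.15 in young samples (SD, n = 6 each), and fell by 0.64 ± 0.08, with a limma adjusted p of 4.34e-04. Hyou1, an ER Hsp70-like chaperone, differed from young by -0.44 ± 0.08 in aged impaired and by -0.41 ± 0.08 in aged unimpaired samples, with adjusted p of 0.00888 and 0.0512. Sdf2l1, an Hspa5 co-factor, fell by 0.78 ± 0.15 in aged impaired against young, with an adjusted p of 0.0128. Calr (calreticulin), the fifth call, was named after its values were seen.

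In the other lists, 0 of 15 further degradation factors and 0 of 19 genes of signal peptidase, signal recognition particle and oligosaccharyltransferase were called in any comparison with limma. Aged impaired against young, 4 of the 15 and 0 of the 19 had an unadjusted p under 0.05, beside 16.2% of all genes. Faf2 differed from young by -0.27 ± 0.12 in aged impaired and by -0.38 ± 0.12 in aged unimpaired samples, with adjusted p of 0.294 and 0.355. Values aged impaired minus young were 0.27 ± 0.09 for Erlec1 and 0.14 ± 0.06 for Os9, lectins of the degradation pathway, and -0.071 ± 0.06 for Ufd1, a Vcp co-factor that gave -0.12 ± 0.06 aged impaired minus aged unimpaired. Srp19 gave 0.16 ± 0.07 aged impaired minus aged unimpaired and 0.092 ± 0.07 aged impaired minus young, where Stt3b gave -0.11 ± 0.07. Aged unimpaired minus young, Stt3a gave -0.15 ± 0.09 and Sec11c 0.12 ± 0.08. Among 15 tested genes of other signalling and of the Atf4 arm, Vldlr, a lipoprotein receptor, rose in aged impaired against young by 0.37 ± 0.09, with a limma adjusted p of 0.0365. Ppp1r15a, which restores translation after stress, differed by 0.44 ± 0.12 aged impaired minus aged unimpaired and by -0.33 ± 0.12 aged unimpaired minus young, with adjusted p of 0.318 and 0.433. Creb3l1, a membrane-bound factor, differed from young by -0.40 ± 0.27 in aged impaired and by -0.74 ± 0.27 in aged unimpaired samples, with adjusted p of 0.495 and 0.441. Cebpb, a transcription factor, gave 0.22 ± 0.09 aged impaired minus young and was not called.

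**Figure D4:**
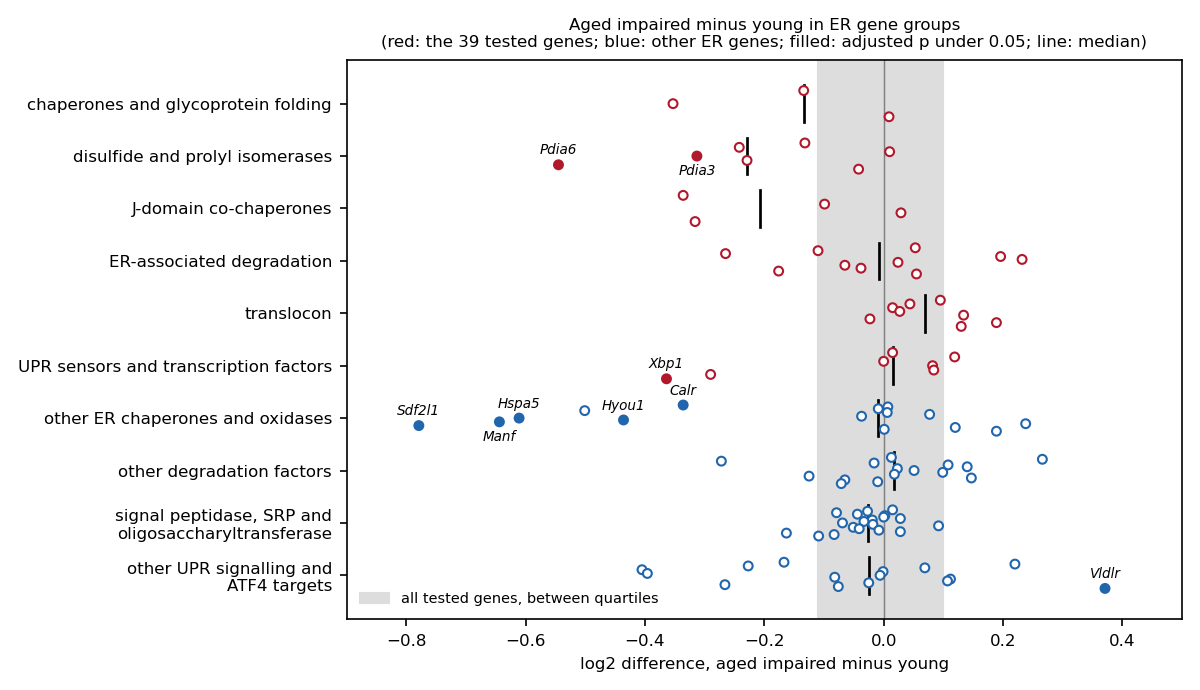
Differences aged impaired minus young, on the log2(signal + 16) scale, of the 39 tested ER genes by sub-function (red) and of the other ER genes by list (blue), 1 point a gene, with a line at each median. Filled points have an adjusted p under 0.05, and the grey band, from -0.11 to 0.10, holds the middle of all tested genes between their quartiles.

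Across the series, 9 of 13 tested microglia markers were called higher in aged impaired than in young samples, beside 1.9% of all genes called in either direction. The microglia marker mean was 10.09 to 10.59 in aged impaired, 10.01 to 10.53 in aged unimpaired and 9.48 to 9.76 in young samples. Each aged group differed from young with an exact permutation p of 0.00216, the smallest that 6 against 6 allows, adjusted to 0.0195 over 27 tests. Summed microglia signals were 6932 to 9879 in aged impaired, 6265 to 9109 in aged unimpaired and 4473 to 5442 in young samples. The myelin marker mean, over 11 tested genes, was 11.90 to 12.03 in aged impaired, 11.46 to 11.88 in aged unimpaired and 11.42 to 11.93 in young samples. It was higher in aged impaired than in young samples, averaging 11.95 ± 0.05 against 11.66 ± 0.17 (SD, n = 6 each), with an exact permutation p of 0.00649, adjusted to 0.0438, and 2 of the 11 genes were called there. It was also higher in aged impaired than in aged unimpaired samples, which averaged 11.74 ± 0.17, with an exact permutation p of 0.00216, adjusted to 0.0195. Choroid plexus markers varied from 7.36 to 10.64 in aged impaired, 6.95 to 10.52 in aged unimpaired and 7.51 to 10.44 in young samples, with no group difference passing. All 10 hippocampal subfield markers were tested, and 2 had a higher mean in aged impaired than in young samples, with a median difference of -0.10. The endothelial marker mean averaged 9.02 ± 0.10 in aged unimpaired and 8.87 ± 0.03 in young samples (SD, n = 6 each). Its exact permutation p was 0.0108, adjusted to 0.0584. No group difference passed for subfield, endothelial or astrocyte marker means. The presynaptic marker mean was 13.20 to 13.30 in aged impaired, 13.23 to 13.39 in aged unimpaired and 13.14 to 13.42 in young samples. RNA quality, as the log2 ratio of 3' to 5' control probe sets, averaged 0.30 ± 0.05 in aged impaired, 0.36 ± 0.06 in aged unimpaired and 0.31 ± 0.07 in young samples (SD, n = 6 each).

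In such bulk samples, fewer cells of a type and less RNA per cell cannot be told apart. With the microglia marker mean as a covariate, aged impaired minus young was -0.52 for Xbp1, -0.86 for Pdia6, -0.63 for Pdia3 and -0.19 for Hsp90b1. No ER gene and 4 genes in all were then called, with adjusted p of 0.254, 0.202 and 0.0981 for Xbp1, Pdia6 and Pdia3. Without a covariate 249 genes in all were called. The microglia marker mean did not overlap between young and aged samples, so this fit could hardly separate group from marker mean. The lost calls thus cannot show what the differences come from, which was not tested. With myelin minus presynaptic markers as a covariate the differences were -0.43 for Xbp1, -0.89 for Pdia6 and -0.48 for Pdia3, and Pdia6 alone of the 39 was called, with an adjusted p of 0.00894. With the choroid plexus mean as a covariate, Xbp1, Pdia6, Pdia3 and Hsp90b1 were called. When young and aged impaired samples were fitted without the aged unimpaired ones, Xbp1, Pdia6 and Pdia3 had adjusted p of 0.0664, 0.0552 and 0.0897, and Hsp90b1 was called at 0.0473.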

How the data were processed

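Per the labels' protocols, total RNA was the starting material, biotin was the label, and 1 array was hybridised per sample. The authors deposited linear intensity values for 45101 probe sets in a column per sample, and the submitters' processing notes name MAS5. Signals ran from 0 to 27601.2 and array medians from 23.5 to 30.5. Precision is limited by how many arrays there are. Scanner files were not used here.

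Signals were rescaled so that the 2% trimmed mean of every array was 500, and log2(signal + 16) was used, which understates changes of dim genes. Left out were 64 control probe sets and the 40% of lowest mean, leaving 27022 with means above 5.92. In the platform annotation 34945 probe sets have 1 symbol, 932 several and 9160 none, and 34741 of the first were matched to RefSeq (GRCm38.p6). Probe sets with several symbols are unnamed.

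All 18 samples entered 1 fit of 3 group means with limma 3.58.1 (R 4.3.3), from which 4 comparisons were taken, 2-sided, with Benjamini-Hochberg adjustment over all tested probe sets and calls at an adjusted p under 0.05. The script was tested on simulated data. Errors after ± are SE of the fit unless SD is named. Groups came from the sample titles. The highest correlation of an array with any other was 0.976 to 0.983. The members and lists were chosen with earlier results of these data known. Values over all samples are given for called members and for the member of lowest p of each sub-function in aged impaired against aged unimpaired, and for Ddit3, added after its values were seen. Up to 4 genes per further list are named by lowest p. Marker means were compared by exact permutation tests, 2-sided. Alternative settings were offsets of 1 and 64, quantile normalization, other filters, a replicate block, covariates, array weights, trended and robust moderation, subsets of groups, the mean of all probe sets and leaving out each sample. The myelin and microglia covariates were chosen after seeing the data. Same-numbered samples in different groups had correlations of their deviations from -0.25 to 0.1, so the numbers were not taken as pairs.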

Additional observations from a re-analysis of the deposited data

Results flagged for a closer look

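Of 117 checks of the highest or lowest sample of a group of 6 for the 39 genes, 6 found a sample farther from the others than Dixon's limit allows, and chance alone gives about 1 in 20. Xbp1 in young replicate 5 was low at 12.39, with the nearest young sample at 12.63. Pdia3 in young replicate 4 was high at 12.43, with the nearest at 12.21. Sel1l in the same sample was high at 11.79, with the nearest at 11.65. In aged impaired replicate 2, Edem3 was low at 9.93 with the nearest at 10.12, Syvn1 low at 9.91 with the nearest at 10.05, and Ssr1 high at 12.03 with the nearest at 11.82.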

How the results depend on the processing

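Aged impaired against aged unimpaired and aged unimpaired against young gave 0 called ER genes with limma under all 26 alternatives run. In the fit reported above, 5 and 3 of the 39 had an unadjusted p under 0.05. Aged impaired against young, where 3 were called, gave 0 without a filter, 1 with only the groups compared (Hsp90b1), 1 with the myelin minus presynaptic covariate (Pdia6), 0 with the microglia covariate and 1 to 3 without each sample in turn. The count was 1 without aged impaired replicate 4, without aged impaired replicate 6 and without young replicate 3. It was 4 in settings that also called more of all tested genes. These settings added Hsp90b1 and were an offset of 64, a filter of 60%, the choroid plexus covariate and trended and robust moderation. Both aged groups against young, where 0 were called, gave 1 with a filter of 60% (Pdia6), 2 with trended and robust moderation (Pdia6 and Xbp1), 2 with the mean of all probe sets (Pdia3 and Xbp1), 1 with the myelin minus presynaptic covariate (Pdia6) and 0 to 1 without each sample in turn. Hsp90b1 was called there without aged unimpaired replicate 2 and Xbp1 without young replicate 5. Only the groups compared was not run there, since all groups enter that comparison. With the sample number as a replicate block, 2 ER genes were called aged impaired against young, Pdia6 at an adjusted p of 0.0269 and Xbp1 at 0.048, while Pdia3 was at 0.113. The block gave 0 ER genes in the other comparisons, and 240 called probe sets in all aged impaired against young, in place of 440.

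Over the 26 alternatives, aged impaired against young was called for Xbp1 in 21, with adjusted p from 0.00197 to 0.254, for Pdia6 in 21, from 0.00574 to 0.202, for Pdia3 in 10, from 0.00309 to 0.116, and for Hsp90b1 in 5, from 0.0198 to 0.756. All probe sets called in that comparison numbered 193 without a filter, 241 with only the groups compared, 26 with the myelin minus presynaptic covariate and 8 with the microglia covariate. All genes called there numbered 249 in the fit reported above. They rose to 267 with an offset of 64 and to 323 with a filter of 60%. They rose to 315 with the choroid plexus covariate and to 343 with trended and robust moderation.

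Syvn1 and Ssr1, never called, changed sign under some alternatives. With the microglia covariate, Syvn1 was 0.061 aged impaired against young, 0.19 aged unimpaired against young and 0.13 for both aged groups, and Ssr1 was -0.021, -0.063 and -0.042. Syvn1 aged unimpaired against young was 0.014 with the RNA quality covariate, 0.019 with the myelin minus presynaptic covariate and -0.038 to 0.029 without each sample in turn. Ssr1 aged unimpaired against young was -0.047 with the mean of all probe sets. The cause was not tested for any of these.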

Other observations

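Deviations of Xbp1 from its group means were correlated with those of the other 38 tested ER genes over the 18 samples, by 100000 permutations within groups. None of the 38 passed Benjamini-Hochberg adjustment. Pearson's r was positive for 29 of the 38, with a median of 0.25, beside 0.03 over all genes, and was over 0.5 for 7, beside 5.54% of all genes. Sec62 had r of 0.65 and rho of 0.64, with permutation p of 0.0122 and 0.0182, adjusted to 0.171 and 0.23, and r of 0.61 without the 2 samples farthest from the median. Dnajb11 had r of 0.60 and rho of 0.69, with permutation p of 0.0159 and 0.00244, adjusted to 0.171 and 0.0927, and r of 0.57 without those samples. Atf6 had the lowest r, -0.59, and rho of -0.49, with permutation p of 0.027 and 0.071, adjusted to 0.171 and 0.293, and r of -0.37 without those samples. Within groups its r was -0.89 in aged impaired, 0.56 in aged unimpaired and -0.78 in young samples. Pdia6 had r of 0.47 and rho of 0.53, with permutation p of 0.0706 and 0.03, adjusted to 0.298 and 0.261, and r of 0.26 without them, so its relation rests in part on those samples. Those samples were young replicate 5 and aged impaired replicate 5. Within groups the r of Pdia6 was 0.11 in aged impaired, 0.98 in aged unimpaired and 0.50 in young samples. Other folding genes gave r of 0.28 for Pdia3, -0.31 for Hsp90b1 and -0.33 for Canx. All values come from the same arrays and share their scaling.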
